A study of Mus musculus with 26 samples.

Results

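The genes described here are the chemokines and their receptors: every gene of the count table whose symbol begins with *Ccl*, *Cxcl*, *Ccr* or *Cxcr* and a number, together with *Xcl1*, *Xcr1* and *Cx3cl1*. This rule, which used no measured value, took 58 of the 23337 genes. The 57 described here are 39 ligands (24 CC, 13 CXC, 1 XC and 1 CX3C) and 18 receptors (10 CC, 7 CXC and 1 XC). RNA-seq compared wild-type (WT) mice with ArKI mice, a knock-in line. The knock-in was made in hybrid embryonic stem cells and passed through the germline, so every cell of an ArKI male, immune and stromal cells included, carries it. All males were 3 months old on a mixed background labelled C57Bl/6N and 129 hybrid, and no animal received a treatment. Whole initial segment (IS) and caput, the first parts of the epididymis, were taken from 5 WT and 5 ArKI mice, and testes from 3 WT and 3 ArKI mice, so that replicates are samples of separate mice.

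Chemokines are small secreted proteins, named by the spacing of their first cysteines, that guide the movement of cells through receptors of the G protein-coupled family. Most are made on demand in inflammation and attract particular leukocytes, while a few, such as *Cxcl12*, *Cxcl14* and *Cx3cl1*, are made steadily by stromal or epithelial cells. The epididymal epithelium is lined by a dense network of macrophages and dendritic cells that reach toward the lumen, and the IS holds the densest part of it. In whole tissue, fewer cells of a type and less RNA per cell cannot be told apart, and this holds for every difference below.

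Promoter sequences were taken from RefSeq (GRCm38.p6, the build of mm10) for 42 of the 57 genes, as the 250 bases before each annotated start. The sequences shown are those of the 3 ligands with the clearest genotype difference in the epididymis and of *Ccl28*, which had the same place in the testis. Each runs 5′ to 3′ on the strand of the gene, with matches to the searched motifs in capitals. For *Cxcl14* (chr13:56296552-56296801, minus strand) the capitals mark an interferon-stimulated response motif (TTTC, then 2 bases of any kind, then TTTC), read on the other strand, at -172 to -163. For *Cxcl12* (chr6:117168285-117168534, plus strand), *Cxcl13* (chr5:95956689-95956938, plus strand) and *Ccl28* (chr13:119623569-119623818, plus strand) they mark the kappa B motif (GGG, then 5 bases of any kind, then CC), at -36 to -27 and on the other strand in *Cxcl12*, at -63 to -54 in *Cxcl13* and at -64 to -55 in *Ccl28*. The *Cxcl14* window lies inside the annotated interval of the gene (chr13:56288643-56296811), so it is not upstream of the outermost annotated start.
Cxcl14: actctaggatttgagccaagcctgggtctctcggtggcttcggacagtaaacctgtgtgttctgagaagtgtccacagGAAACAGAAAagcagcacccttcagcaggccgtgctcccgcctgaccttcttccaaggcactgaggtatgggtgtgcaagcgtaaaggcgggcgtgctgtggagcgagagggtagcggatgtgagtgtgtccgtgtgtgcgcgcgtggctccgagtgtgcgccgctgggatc
Cxcl12: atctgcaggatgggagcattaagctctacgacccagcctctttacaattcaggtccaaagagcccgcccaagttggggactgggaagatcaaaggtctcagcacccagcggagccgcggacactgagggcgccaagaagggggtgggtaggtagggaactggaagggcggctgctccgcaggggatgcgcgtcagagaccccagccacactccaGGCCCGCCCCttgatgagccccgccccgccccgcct
Cxcl13: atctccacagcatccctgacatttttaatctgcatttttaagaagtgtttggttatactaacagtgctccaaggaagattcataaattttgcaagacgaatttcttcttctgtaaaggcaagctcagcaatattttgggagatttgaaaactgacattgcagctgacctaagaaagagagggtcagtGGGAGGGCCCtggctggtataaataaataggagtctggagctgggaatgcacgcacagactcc
Ccl28: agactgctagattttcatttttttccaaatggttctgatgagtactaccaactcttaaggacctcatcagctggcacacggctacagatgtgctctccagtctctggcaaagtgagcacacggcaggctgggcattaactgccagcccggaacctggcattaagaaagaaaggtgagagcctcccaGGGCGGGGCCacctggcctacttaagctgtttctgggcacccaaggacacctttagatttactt
Over both strands, the kappa B motif was in 51.0% of the 49 promoters of these genes and in 45.8% of all 32851 promoters and the interferon motif in 6.12% and 2.98%. These matches are a description of letters in the windows and overlap each other in places, with no test of binding.

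The samples held 5829074 to 9770625 counts in the IS, 4125768 to 11913469 in the caput and 14077013 to 21376604 in the testis, so 3 counts, taken as the floor of detection, correspond to at most 0.515, 0.727 and 0.213 CPM, the count scaled to a common library size of 1e+06. The labelled tissues had their markers: the 4 IS principal cell genes summed to 18707 to 22664 CPM in the IS and 2312 to 6248 CPM in the caput, and the 5 germ cell genes to at least 4457 CPM in the testis, while the 4 genes listed for caput principal cells were high in both segments and higher in the IS (24745 to 27669 CPM in WT IS and 14637 to 18570 CPM in WT caput), against the name of the list: *Crisp1*, *Lcn8* and *Rnase10* were lower in WT caput, and *Lcn5* was higher. ArKI caput replicate 2 stood apart. It was the shallowest library, its 3 pan-leukocyte markers summed to 58.1 CPM against 31.9 to 38.3 in the other 4 ArKI caput samples, its 8 macrophage and monocyte markers to 250 CPM against 152 to 180, and 9 of the 15 chemokine genes tested in the caput were highest there among the ArKI samples. Caput results are therefore also given without it. Testis and epididymis were sequenced in separate batches, which cannot be told apart from the tissue, so levels are compared between them as a description only.

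Few of the 57 genes carried appreciable RNA. After the filter on low counts, 18 were tested in the IS, 15 in the caput and 20 in the testis, 10 of them in all 3 tissues and 26 in at least 1 (18 ligands and 8 receptors). The other 31 never exceeded 16 counts in a sample, and 6 were at 0 in all 26 samples (*Ccl21a*, *Ccl21b*, *Ccl21c*, *Ccl27b*, *Cxcl3* and *Cxcr1*). The *Ccl21* genes and *Ccl27b* have near-identical copies in the genome, and uniquely mapped reads alone were counted, so their zeros are uncertain. *Cxcr2*, the receptor of neutrophils, had at most 2 counts in any sample, and the 3 neutrophil marker genes in the table passed the filter in neither epididymal segment.

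Per kilobase of exon, 3 ligands led in both epididymal segments of WT mice. *Cxcl14*, a ligand of epithelia without a settled receptor, *Cx3cl1* (fractalkine), a membrane-tethered ligand of macrophages, and *Cxcl12*, a stromal ligand that retains leukocytes and progenitors, stood at 10.9 ± 1.28, 10.4 ± 1.35 and 9.88 ± 0.570 CPM per kb in WT IS (SD, n = 5), with overlapping ranges. Next came *Cxcr7* (*Ackr3*), a receptor that takes up CXCL12 without G protein signalling, at 5.75 and *Cxcl16*, a ligand that attracts T cells and NKT cells, at 5.48 CPM per kb. In WT caput the order was *Cx3cl1* (31.2), *Cxcl14* (13.8), *Cxcl12* (7.97), *Cxcr7* (5.66) and the monocyte attractant *Ccl8* (5.48). In ArKI caput the order was *Cxcl14* (36.5), *Cx3cl1* (31.5), *Ccl8* (8.90 ± 7.98, highest in replicate 2) and *Cxcl12* (6.98). *Cx3cl1*, *Cxcl12* and *Cxcl14* together held 63.5% of the counts of all 57 genes in WT IS and 78.2% in WT caput, but 23.1% in WT testis. There *Ccl27a*, a skin ligand for T cells, led at 12.9 CPM per kb and held 27.9% of the counts, ahead of *Ccl22* (2.63), *Cxcl12* (2.38), *Ccl8* (2.14) and *Cxcr4* (2.05), whose ranges overlapped. *Ccl27a* (chr4:41769467-41774225) overlaps *Il11ra1*, which stood at 5.02 CPM in WT testis and 19.9 CPM in WT IS, and the counting strand is not given in the sources used here. The same limit holds for *Cxcl16*, which overlaps *Zmynd15*, *Cxcl10* (*Art3*), *Cxcr5* (*Bcl9l*), *Cxcr6* (*Fyco1*) and *Ccr10* (*Cntnap1*). All 57 genes made up 0.0221 ± 0.000991% of the counts in WT IS, 0.0192 ± 0.00152% in ArKI IS, 0.0267 ± 0.00194% in WT caput and 0.0331 ± 0.00386% in ArKI caput.

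**Figure D1:**
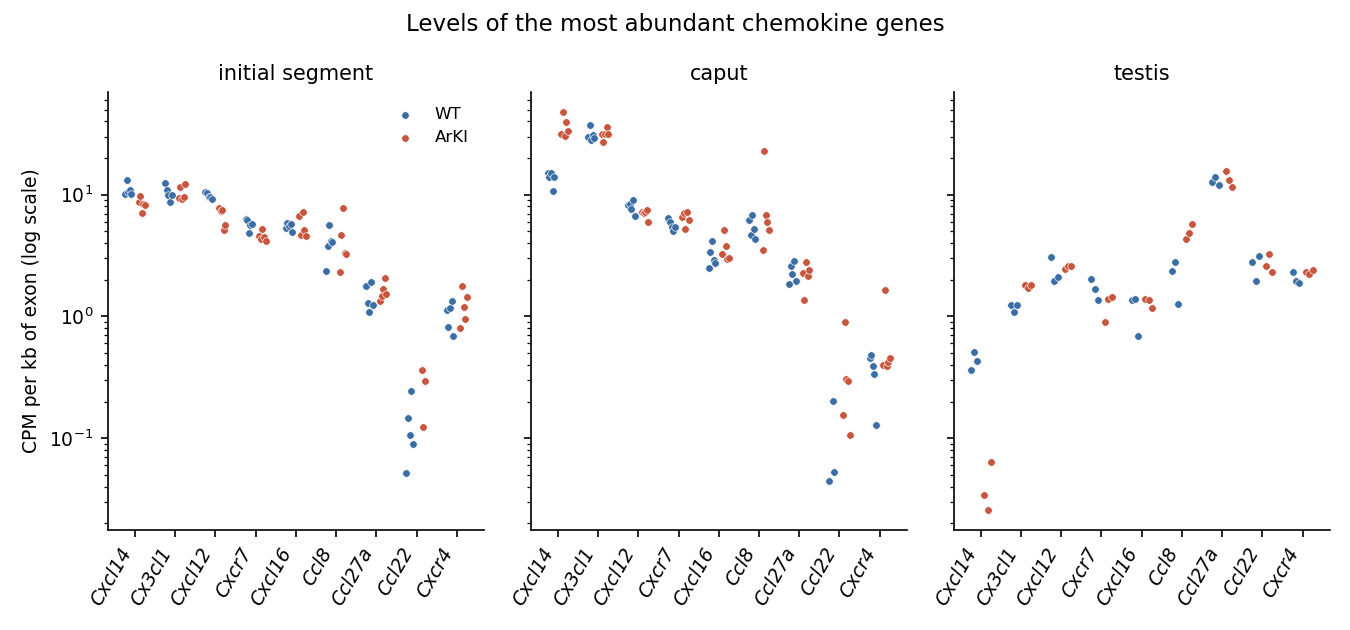
CPM per kilobase of exon (log axis) of the leading chemokine and receptor genes in the IS, the caput and the testis, with each WT and ArKI sample as a point. Samples with no count cannot be drawn on this axis. *Cxcl14*, *Cx3cl1* and *Cxcl12* led in WT IS and WT caput, and *Ccl27a* in WT testis.

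In the IS, 5 of the chemokine and receptor genes passed the test between ArKI and WT mice. *Cxcl12* fell by 0.56 on the log2 scale and *Cxcl14* fell by 0.38, the receptors *Cxcr7* and *Ccr1* also fell, and *Cxcl13* rose 3.16-fold. *Cxcl13* passed the filter on low counts through the ArKI samples, where it was high, so its call is not independent of that filter. Of the 18 genes tested, 1 was higher and 4 were lower at an adjusted p below 0.05 (edgeR quasi-likelihood test), beside 15.0% of all genes higher and 14.6% lower, so that the count is near that of all genes. *Cx3cl1*, which like *Cxcl12* and *Cxcl14* is made steadily, had 0.01. The median log2 fold change of the 18 was 0.05, against 0.00 over all genes. At the thresholds of the study for this tissue (adjusted p below 0.01 and fold above 2), 1 was called, *Cxcl13*, beside 4.04% of all genes. That call was lost without WT replicate 1, WT replicate 3 or ArKI replicate 1, each of which left 0.

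*Cxcl12* (chr6:117168535-117181368) stood at 86.6, 84.7, 78.8, 78.1 and 75.7 CPM in the WT samples of the IS and at 63.1, 59.7, 61.6, 42.2 and 46.4 CPM in the ArKI samples. Every ArKI sample was below every WT sample, with ArKI replicates 4 and 5 lowest. The difference of -0.56 (SE 0.10, adjusted p = 0.0012) stood beside a caput value of -0.19 that did not pass the test (65.1 ± 7.06 and 57.0 ± 4.95 CPM, adjusted p = 0.0845). The test of a difference between the segments did not pass for *Cxcl12* (0.37, adjusted p = 0.0744), but did without ArKI IS replicate 1 or 3 or ArKI caput replicate 5. Its scavenging receptor *Cxcr7* (chr1:90203980-90215724) gave 21.1, 20.8, 16.3, 19.0 and 19.1 CPM in WT IS and 15.4, 14.5, 17.6, 15.0 and 13.9 CPM in ArKI IS. ArKI replicate 3 overlapped WT replicate 3, and the other ArKI samples were below all WT samples (log2 fold change -0.33, SE 0.10, adjusted p = 0.0135). *Cxcr4*, the signalling receptor of CXCL12, was at 1.86 and 2.23 CPM in WT and ArKI IS and did not pass the test (0.29, adjusted p = 0.466).

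*Cxcl14* (chr13:56288643-56296811) stood at 18.3, 24.0, 19.1, 19.9 and 18.5 CPM in WT IS and at 15.8, 17.9, 12.9, 15.2 and 15.1 CPM in ArKI IS. The groups did not overlap, although the highest ArKI sample lay close to the lowest WT sample (log2 fold change -0.38, SE 0.10, adjusted p = 0.00867). *Ccr1* (chr9:123962126-123968692), a receptor of monocytes and macrophages for several CC ligands, gave 2.05, 2.97, 2.61, 2.55 and 2.61 CPM in WT IS and 1.58, 1.69, 1.71, 0.683 and 1.54 CPM in ArKI IS. Its groups did not overlap either, and ArKI replicate 4 was far below the rest (log2 fold change -0.80, SE 0.25, adjusted p = 0.0198). The adjusted p of *Ccr1* was 0.0625 in 1 fit over all 4 epididymal groups. None of its listed ligands passed the test in the IS: *Ccl5*, *Ccl6* and *Ccl9* had log2 fold changes of 0.17, -0.03 and 0.36.

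*Cxcl13* (chr5:95956939-95961068), which draws B cells into lymphoid follicles, gave 0.845, 1.49, 0.993, 2.26 and 0.313 CPM in WT IS and 5.02, 5.34, 2.57, 3.24 and 2.01 CPM in ArKI IS. ArKI replicate 5 lay below WT replicate 4, and the other ArKI samples were above all WT samples (log2 fold change 1.66, SE 0.39, adjusted p = 0.00437). Its receptor *Cxcr5* had 0 to 6 counts in every IS sample, and of the 4 B cell markers none was tested in the IS. *Ccl28*, a mucosal ligand for plasma cells, was at 9.93 ± 2.98 CPM in WT and 5.62 ± 3.10 CPM in ArKI IS, with overlapping samples and an adjusted p of 0.119. It was called in 1 fit over all 4 epididymal groups and without ArKI IS replicate 3.

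Markers of several cell types moved in the ArKI IS as well. All 4 endothelial genes (*Pecam1*, *Cdh5*, *Kdr* and *Tek*) fell, their sum being 95.8 to 115 CPM in WT and 66.3 to 78.8 CPM in ArKI. All 4 smooth muscle genes fell too, from 501 to 564 CPM in WT to 209 to 384 CPM in ArKI, while both lymphatic genes tested, *Lyve1* and *Flt4*, rose. Of the 8 macrophage and monocyte genes, 4 fell (*C1qa*, *Csf1r*, *Cx3cr1* and *Emr1*) and none rose, with sums of 222 to 315 and 200 to 265 CPM. The 3 pan-leukocyte genes had overlapping sums of 48.3 to 59.7 and 44.5 to 55.7 CPM, and none passed the test. Epithelial and stromal lists moved too. Of the 3 basal cell genes *Krt5* and *Trp63* fell, with sums of 262 to 308 CPM in WT and 205 to 232 CPM in ArKI. Of the 4 caput principal cell genes *Crisp1*, *Lcn8* and *Rnase10* fell, with sums of 24745 to 27669 and 17673 to 20404 CPM, while *Cst11* of the IS principal cell list rose and *Atp6v0d2* of the clear cell list fell, with values above 0 that did not pass for the other 2 clear cell genes. Of the 4 fibroblast genes *Col1a1* and *Col3a1* rose and *Pdgfra* fell, with overlapping sums of 984 to 1081 and 1036 to 1282 CPM. *Itgax* of the dendritic list and *Klrb1c* of the NK list fell, and *Sox9* and *Wt1* of the Sertoli list and *Cyp11a1* of the Leydig list rose. In WT IS the NK list summed to 987 to 1125 CPM with *Ncr1* and *Gzma* at 3 counts or fewer. Nearly all of it was thus *Klrb1c*, whose level cannot be read as that of NK cells. The part of these changes in the differences of *Cxcl12*, *Cxcr7*, *Cxcl14* and *Ccr1* was not tested.

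In the caput 1 of the 15 genes tested, *Cxcl14*, was higher in ArKI mice and 0 were lower at an adjusted p below 0.05 in edgeR. Of all genes, 13.7% were higher and 14.0% lower. At an unadjusted p below 0.05, 3 were higher and 1 was lower, and DESeq2 and limma voom both called *Cxcl14* alone. The fold change was above 0 for 12 of the 15, with a median of 0.47 on the log2 scale against 0.00 over all genes. Without ArKI replicate 2 the median was 0.24, with 12 of the 15 above 0. At the thresholds of the study *Cxcl14* was called too, beside 4.98% of all genes. Leaving out ArKI caput replicate 2 left *Cxcl14* called alone at an adjusted p below 0.05. The count was 2 without WT replicate 1 or 2, where *Ccl9* was called too, and 2 without ArKI replicate 3, where *Cxcr7* was. It was 3 without WT replicate 3 or 4 and 4 without WT replicate 5 or ArKI replicate 1, where *Ccl9* and *Cxcl13*, which pass the filter with fewer samples, were called too. The other added call was *Cxcl12* without WT replicate 5 and *Ccl6* without ArKI replicate 1. At the thresholds of the study it was 3 without ArKI replicate 1.

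*Cxcl14* stood at 27.3, 25.8, 27.4, 19.6 and 25.8 CPM in WT caput and at 57.4, 87.4, 55.5, 71.7 and 61.1 CPM in ArKI caput. Every ArKI sample was far above every WT sample, with ArKI replicate 2 highest. The log2 fold change was 1.39 (SE 0.13, adjusted p = 1.74e-05), and 1.30 without ArKI replicate 2 (adjusted p = 6.68e-08).

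Other caput values stayed short of the threshold. The macrophage ligand *Ccl6* had 0.68 on the log2 scale (adjusted p = 0.114, called without ArKI replicate 1, and 0.39 without ArKI replicate 2), *Ccl17*, a ligand of CCR4, had 0.82 (adjusted p = 0.103) and *Ccr2*, the receptor of inflammatory monocytes, had 0.68 (adjusted p = 0.207, and 0.25 without ArKI replicate 2). *Ccl8* was at 2.80 ± 0.536 CPM in WT and 4.55 ± 4.08 CPM in ArKI caput, and its log2 fold change of 0.51 became 0.00 without ArKI replicate 2, which held 11.8 CPM. *Cx3cl1*, the most abundant chemokine of WT caput, differed little between the genotypes there (122 ± 14.8 and 124 ± 12.1 CPM, log2 fold change 0.03, 95% interval -0.13 to 0.19) and in the IS (40.7 ± 5.31 and 41.0 ± 5.42 CPM, 0.01, -0.18 to 0.20).

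**Figure D2:**
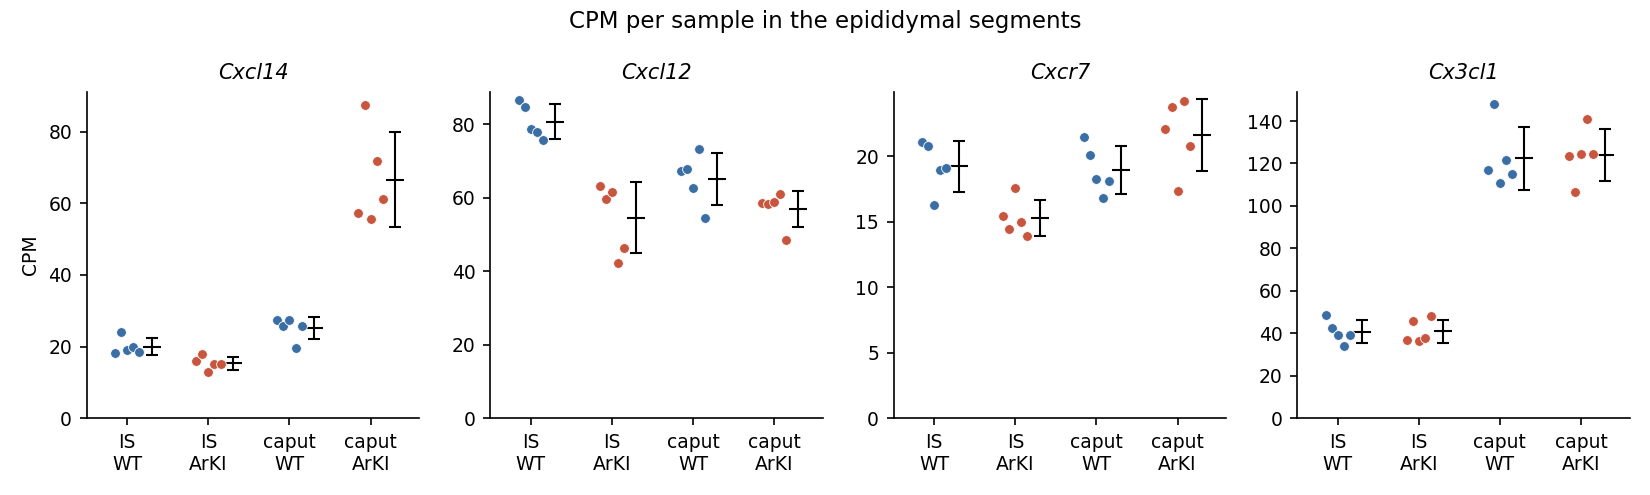
CPM of each sample (points) with the mean and SD for *Cxcl14*, *Cxcl12*, *Cxcr7* and *Cx3cl1* in WT and ArKI IS and caput. *Cxcl14* was lower in ArKI than in WT IS (12.9 to 17.9 and 18.3 to 24.0 CPM) and higher in ArKI than in WT caput (55.5 to 87.4 and 19.6 to 27.4 CPM).

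Of the leukocyte markers 2 were called higher in ArKI caput, *Coro1a* and *Lyz2*. The 3 pan-leukocyte genes summed to 25.1 to 33.0 CPM in WT and 31.9 to 58.1 CPM in ArKI, with overlapping samples, and *Coro1a*, an actin regulator of leukocytes, was the 1 called. Of the 8 macrophage and monocyte genes *Lyz2* alone rose, with overlapping sums of 126 to 163 and 152 to 250 CPM. Of the endothelial genes *Kdr* and *Pecam1* rose (sums 41.4 to 44.4 and 47.4 to 71.0 CPM), and *Lyve1* and *Flt4* rose as in the IS. Without ArKI replicate 2, *Coro1a* and *Lyz2* were still called (adjusted p = 0.00306 and 0.0180). All 3 germ cell genes tested (*Ddx4*, *Prm1* and *Tnp1*) fell, the 5 listed summing to 28.6 to 44.1 CPM in WT and 1.95 to 6.75 CPM in ArKI. Of the epithelial genes *Lcn5* of the caput principal cell list and *Atp6v0d2* of the clear cell list fell, and *Ros1* of the IS principal cell list and *Atp6v1b1* of the clear cell list rose. *Sox9*, listed for Sertoli cells, rose too, and none of the basal, smooth muscle, fibroblast, dendritic or T cell genes tested was called. Without ArKI replicate 2 the fibroblast gene *Col1a1* was called as well (0.55, adjusted p = 0.0427). The part of these changes in the rise of *Cxcl14* was not tested.

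Whether the ArKI effect differed between the segments was tested in 1 fit over the 4 epididymal groups, with 19 of the 57 genes. The fit treated all 20 samples as independent, since the labels do not say which IS and caput came from the same mouse. *Cxcl14*, *Cxcr7* and *Ccr1* had an effect that was higher in caput than in IS (3 of 19, against 15.1% of all genes in either direction), and none had a lower one. The difference was positive for 15 of the 19 genes, with a median of 0.37 on the log2 scale against 0.00 over all genes. Without ArKI caput replicate 2 it was positive for 13 of the 19, with a median of 0.18. For *Cxcl14* it was 1.76 (SE 0.18, adjusted p = 4.69e-07), the IS fall and the caput rise being opposite in sign. For *Cxcr7* it was 0.51 (SE 0.14, adjusted p = 0.0118), with means of 18.9 ± 1.81 and 21.6 ± 2.75 CPM in WT and ArKI caput. Cell type markers shifted in the same fit. Of 8 macrophage and monocyte genes 7 were positive and 3 were called (median 0.655). All 4 endothelial genes were positive, with *Kdr* and *Pecam1* called, and all 4 smooth muscle genes were called (medians 0.65 and 1.10). *Krt5*, *Flt4*, *Itgax*, *Sox9*, *Crisp1* and *Ros1* of other lists were called higher, and *Cyp11a1* lower. The part of these shifts was not tested.

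The difference of *Ccr1* (1.43, SE 0.47, adjusted p = 0.0366) was less firm. It lost the threshold without any 1 of 10 libraries (WT IS replicates 2 to 5, ArKI IS 4 and 5, WT caput 1 and 2, ArKI caput 2 and 4), with adjusted p-values up to 0.0776, which left 2 genes with a difference, *Cxcl14* and *Cxcr7*. In WT caput *Ccr1* was at 0.205 and 0.546 CPM in replicates 1 and 2 and at 1.52 to 1.83 CPM in the other 3, and in ArKI caput at 1.57 to 2.54 CPM.

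**Figure D3:**
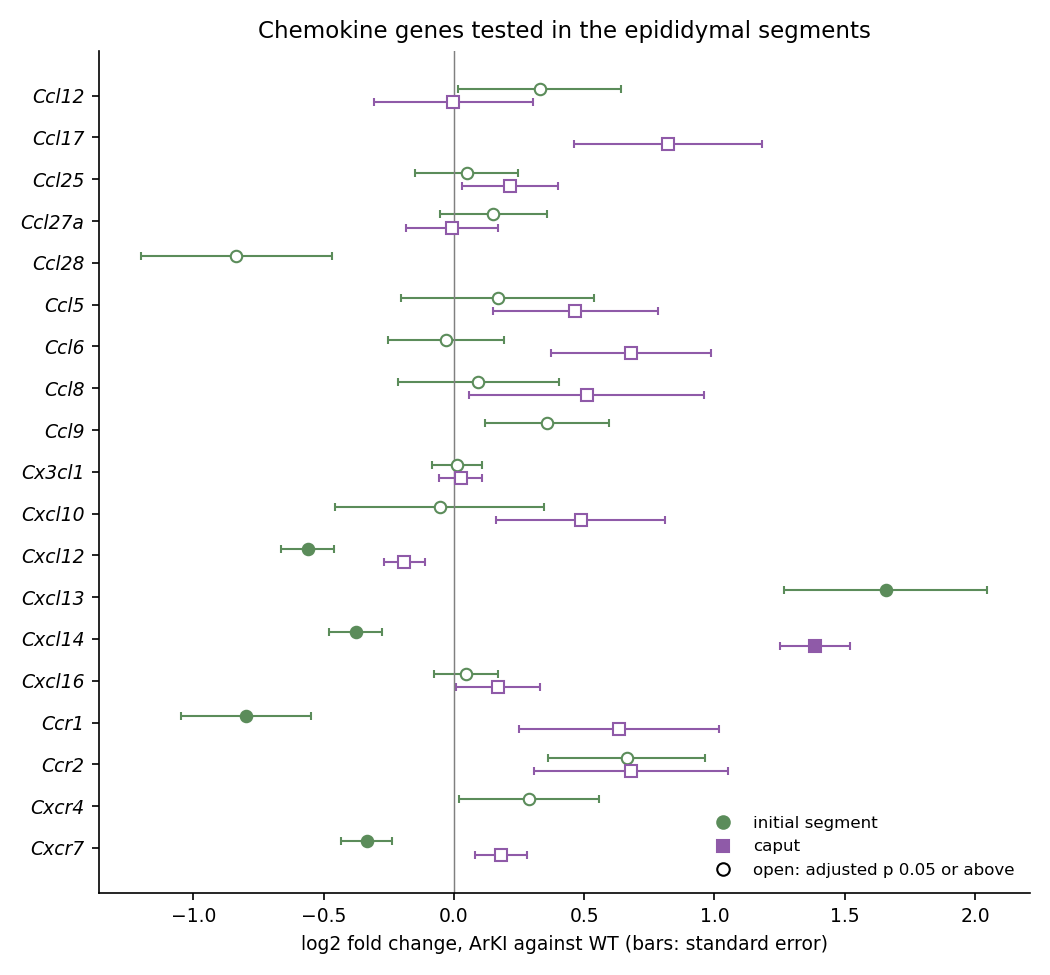
Log2 fold changes of ArKI against WT with their standard errors (bars) for the chemokine and receptor genes tested in the IS (circles) or the caput (squares), filled where the adjusted p was below 0.05. *Cxcl14* was at -0.38 in the IS and 1.39 in the caput, and 12 of the 15 caput values lay above 0.

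Several genes too low for the filter had counts that separated by genotype, and these were picked after their values were seen. *Ccl11* (eotaxin-1; chr11:82057832-82062955), which attracts eosinophils and lies in the locus of 6 CC ligands on chromosome 11, had 10, 13, 5, 6 and 5 counts in WT IS and 2, 0, 1, 1 and 4 in ArKI IS. In the caput it had 10, 5, 16, 8 and 10 counts in WT and 2, 3, 4, 1 and 3 in ArKI, and in the testis 0 in every sample. All ArKI counts were below all WT counts in both segments, but scaled to library size the shallow ArKI caput replicate 2 (0.692 CPM) lay above WT caput replicate 2 (0.546 CPM). With every gene of at least 1 count in the fit, *Ccl11* was lower by a log2 fold change of -2.01 in the IS (adjusted p = 0.0071) and -1.95 in the caput (adjusted p = 0.00292), or -2.19 in the caput without ArKI replicate 2 (adjusted p = 0.000918). *Cxcl13* was higher in ArKI caput as well: it had 0.411, 0.546, 0.351, 0.244 and 0.234 CPM (2 to 5 counts) in WT and 0.965, 6.92, 1.60, 2.82 and 1.07 CPM (8 to 33 counts) in ArKI, without overlap there. In that fit its log2 fold change was 2.66 (adjusted p = 0.00582), and 2.16 without ArKI replicate 2 (adjusted p = 0.000173).

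In all, that fit called 2 of the 28 otherwise untested genes with a count in the IS (*Ccl11* and *Xcr1*, the receptor of cross-presenting dendritic cells) and 6 of 33 in the caput (*Ccl11*, *Cxcl13*, *Ccl9*, *Cxcl9*, *Ccl22* and *Ccl4*), beside 23.0% and 22.5% of all genes. Most genes behind those shares passed the filter, so they are not the shares of low genes. Dropping the filter raised the genes tested from 13434 to 18681 in the IS. Calls there were 2015 higher and 1965 lower before, and 2108 and 2191 after. The caput went from 13726 to 18986 genes, with 1883 higher and 1925 lower before, and 2044 and 2237 after. In the testis edgeR called 0 of 26 without the filter, with 3 at an unadjusted p below 0.05. The calls of *Ccl22* and *Ccl4* in the caput were lost without ArKI replicate 2, with fitted log2 fold changes of 2.23 and 1.82 with and without it for *Ccl22* and 3.37 and 3.33 for *Ccl4*. *Ccl4* had at most 2 counts in any caput sample, below the floor of 3 counts in both genotypes, so its fitted values depend on the prior count. *Ccl9*, a macrophage ligand of CCR1, had 6 to 10 counts in WT caput and 8 to 32 in ArKI (log2 fold change 1.23, adjusted p = 0.0121, and 0.96 without ArKI replicate 2, adjusted p = 0.0280). *Cxcl9*, an interferon-induced ligand of T cells, had 1 to 6 and 4 to 17 counts (1.77, adjusted p = 0.0139, and 1.77 without ArKI replicate 2, adjusted p = 0.0134).

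The scavenging receptors that remove chemokines without signalling are not named by the rule above, apart from *Cxcr7*, and were listed separately. *Darc* (*Ackr1*), which binds many CC and CXC ligands on venous endothelium and red cells, had 0.724, 1.26, 0.497, 0.707 and 1.25 CPM in WT IS and 4.75, 4.36, 4.14, 5.12 and 3.90 CPM in ArKI IS. All ArKI samples were above all WT samples there (log2 fold change 2.27, SE 0.25, adjusted p = 9.26e-07) and in the caput, where the means were 0.458 and 4.41 CPM (3.21, SE 0.31, adjusted p = 7.66e-07, and 3.13 without ArKI replicate 2). *Ccbp2* (*Ackr2*), the scavenger of inflammatory CC ligands on lymphatic vessels, rose from 0.889 to 2.75 CPM in the IS (1.61, adjusted p = 0.000134) and from 0.269 to 1.98 CPM in the caput (2.83, adjusted p = 2.25e-05). *Ccrl1* (*Ackr4*), which takes up CCL19, CCL21 and CCL25, rose in the caput from 23.8 to 42.1 CPM (0.80, adjusted p = 3.49e-05), with 0.32 in the IS (adjusted p = 0.189). The test of a difference between the segments did not pass for *Darc*, *Ccbp2* or *Ccrl1* (adjusted p = 0.158, 0.087 and 0.152). *Lyve1* and *Flt4*, the lymphatic markers named above, moved in the same direction, summing with *Prox1* to 15.3 to 19.1 CPM in WT and 36.4 to 48.0 CPM in ArKI IS, and to 8.42 to 10.7 and 30.5 to 42.3 CPM in the caput. Their part in these rises was not tested.

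**Figure D4:**
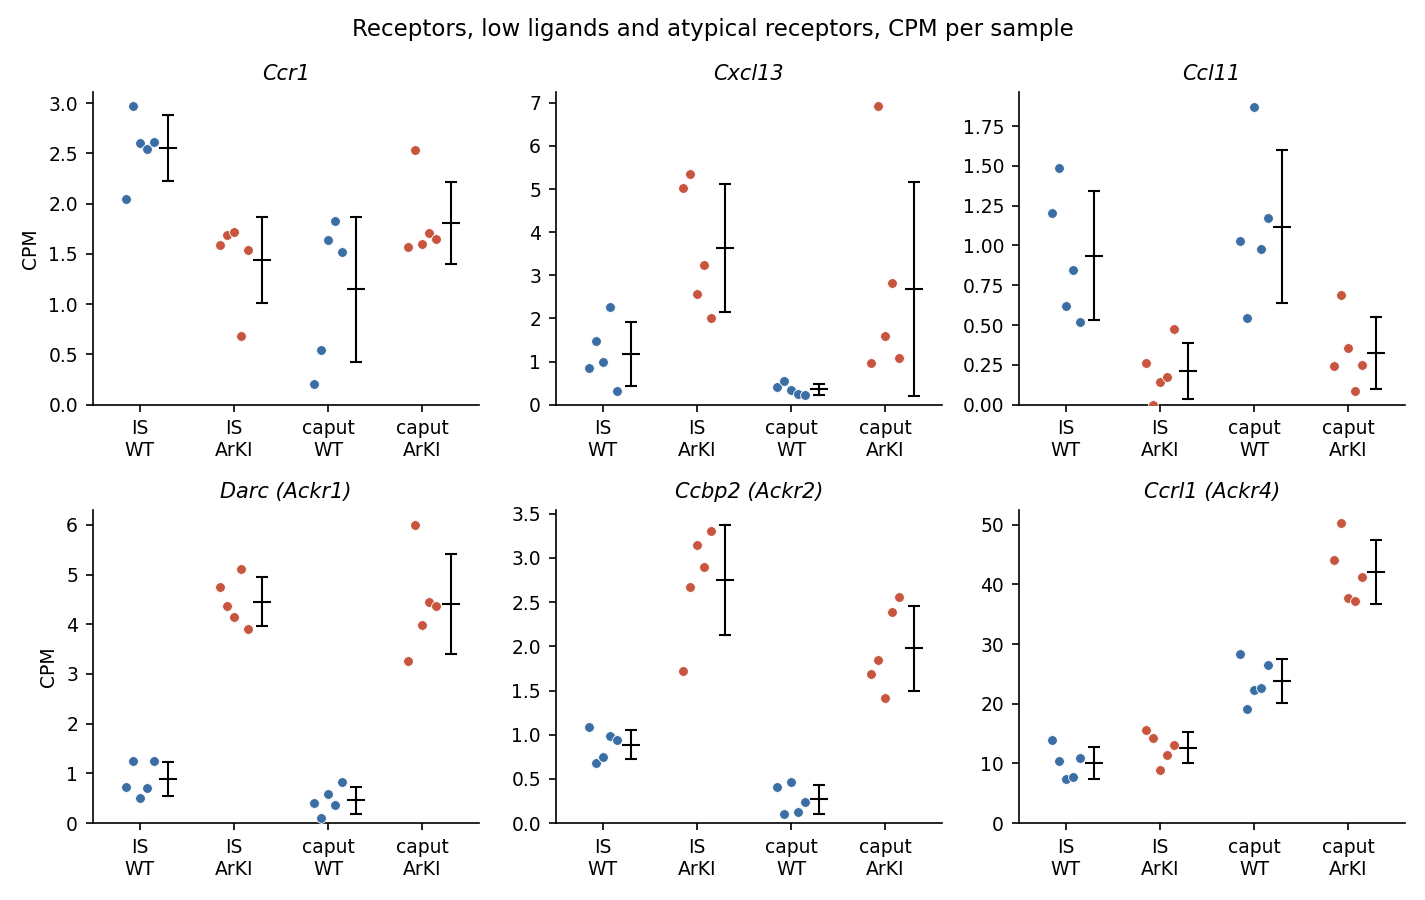
CPM of each epididymal sample (points) with the mean and SD for the receptor *Ccr1*, the ligands *Cxcl13* and *Ccl11* and the scavenging receptors *Darc*, *Ccbp2* and *Ccrl1* in WT and ArKI IS and caput. *Darc* was at 0.497 to 1.26 CPM in WT IS and 3.90 to 5.12 CPM in ArKI IS, and *Cxcl13* at 0.234 to 0.546 and 0.965 to 6.92 CPM in WT and ArKI caput.

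*Cx3cr1*, the receptor of *Cx3cl1* and a marker of the mononuclear phagocytes of the epididymal epithelium, was at 33.8, 35.0, 35.8, 28.3 and 29.4 CPM in WT IS and at 17.3, 21.9, 19.3, 23.2 and 20.2 CPM in ArKI IS. Every ArKI sample was lower (log2 fold change -0.68, adjusted p = 1.17e-05), while its ligand had 0.01. In the caput the receptor had 0.09 (adjusted p = 0.618), and the difference between the segments was 0.76 (adjusted p = 0.000765). Of the 13 listed genes of this wider chemokine system, which also include the chemerin gene *Rarres2*, 9 are in the count table. Of these, 7 were tested in each epididymal segment: 3 rose and 1 fell in the IS, and 4 rose and 0 fell in the caput, beside 15.0% and 14.6% of all genes higher and lower in the IS and 13.7% and 14.0% in the caput. *Rarres2*, a leukocyte attractant outside the chemokine family, rose in both segments (0.88, adjusted p = 0.00349, and 0.36, adjusted p = 0.0149).

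The segments were also compared within each genotype. In WT mice 4 of the 19 genes tested were higher in caput than in IS and 8 were lower, beside 34.4% and 35.0% of all genes, with a median of -0.31 on the log2 scale. In ArKI mice 5 were higher and 3 lower, beside 33.0% and 33.2%. Neither total, 12 of 19 and 8 of 19, exceeds the share of all genes. *Ccl28*, *Cxcl13*, *Cxcr4* and *Ccl9* did not pass the filter in the caput by itself, and *Ccl17* did not in the IS by itself. Without ArKI caput replicate 2 the ArKI count was 11 in place of 8.

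*Cx3cl1* was 1.59 higher on the log2 scale in WT caput (SE 0.10, adjusted p = 5.13e-12) and 1.60 higher in ArKI caput. *Cxcl14* was 0.34 higher in WT caput (adjusted p = 0.0205) and 2.09 higher in ArKI caput (adjusted p = 6.74e-13). *Ccl27a* was 0.66 higher in WT caput (adjusted p = 0.00327). *Ccl17*, a ligand of T cells made by dendritic cells, had 0 counts in all 5 WT IS samples and 14, 3, 10, 8 and 5 in WT caput. Set against 3 counts per library, it was at least 2.48-fold higher in WT caput. In ArKI mice it had 2, 2, 0, 1 and 0 counts in the IS and 7, 8, 22, 25 and 15 in the caput, a ratio of summed counts per library size of 11.6 (95% interval 4.77 to 36.8, counting error only).

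The genes that were lower in WT caput were led by *Ccl28*, which fell from 9.93 CPM in the IS to 0.972 CPM (log2 difference -3.34, adjusted p = 1.99e-08). *Cxcl13* followed at -1.62 (adjusted p = 0.0422), *Cxcr4* at -1.47 (adjusted p = 0.00135), *Ccl9* at -1.22 (adjusted p = 0.00232) and *Ccr1* at -1.18 (adjusted p = 0.00213). *Cxcl10*, *Cxcl16* and *Cxcl12* were also lower, by 1.11, 0.80 and 0.31, and the call of *Cxcl10* was lost without WT IS replicate 3. The call of *Cxcl13* rested on few counts and was lost without any 1 of WT IS replicates 2, 3 and 4 and WT caput replicates 1, 3, 4 and 5, in limma voom and with every gene of at least 1 count, with adjusted p-values up to 0.121. The 3 pan-leukocyte genes and 6 of the 8 macrophage and monocyte genes were lower in WT caput as well (*Cd14* and *Cd68* were higher). All 4 endothelial genes, *Lyve1*, *Flt4*, *Pdgfra* of the fibroblast list and *Itgax* of the dendritic list were lower there too, and *Acta2*, *Cnn1* and *Myh11* of the smooth muscle list were higher. *Cd3e* of the T cell list, *Klrb1c* of the NK list, *Trp63* of the basal list, *Atp6v0d2* of the clear cell list and the 4 IS principal cell genes were lower. Higher were *Krt5* of the basal list, *Atp6v1b1* and *Foxi1* of the clear cell list and 3 germ cell genes (*Ddx4*, *Prm1* and *Tnp1*). Their part was not tested.

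In the testis *Ccl28* and *Cxcl14* were lower in ArKI mice and *Ccl8* and *Cx3cl1* were higher. These 4 were called among 20 genes tested, 2 in each direction, beside 1.64% of all genes higher and 0.328% lower. One of them, *Cxcl14*, passed the filter through the WT samples alone, where it was high. The median log2 fold change of the 20 was 0.06. At the thresholds of the study for this tissue (adjusted p below 0.2 and fold above 2), *Ccl28*, *Cxcl14* and *Ccl8* were called, beside 0.833% of all genes, and *Ccl8* was lost without WT replicate 3, which left 2. With every gene of at least 1 count it was 5, with *Ccl6* and *Cxcr6* added.

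*Ccl28* (chr13:119623819-119654359) stood at 7.74, 5.39 and 6.63 CPM in WT testis and at 2.32, 2.82 and 2.08 CPM in ArKI testis. Every ArKI sample was at about the same low level, well below every WT sample (log2 fold change -1.44, SE 0.18, adjusted p = 2.28e-05). Its receptor gene *Ccr10* had 0 to 2 counts in the testis samples and at most 5 in any epididymal sample. *Cxcl14* had 11, 13 and 11 counts in WT testis and 1, 1 and 2 in ArKI testis, so that ArKI samples were below the floor of 3 counts. The ratio of summed counts per library size was 10.7 (95% interval 3.82 to 41.4, counting error only), and the fitted log2 fold change of -3.29 (adjusted p = 0.000977) depends on the prior count. *Cxcl14* passed the filter on low counts here through the WT samples alone, so its call is not independent of that filter.

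*Ccl8* (chr11:82115185-82116799) gave 1.20, 1.44 and 0.642 CPM in WT testis and 2.19, 2.49 and 2.95 CPM in ArKI testis. The groups did not overlap (log2 fold change 1.21, SE 0.26, adjusted p = 0.0124), but the call was lost without WT replicate 3 (adjusted p = 0.111) or ArKI replicate 3 (adjusted p = 0.0606), each of which left 2 calls in all. *Cx3cl1* (chr8:94772180-94782427) gave 4.92, 4.24 and 4.85 CPM in WT and 7.14, 6.77 and 7.16 CPM in ArKI testis. Its groups were narrow and apart (log2 fold change 0.58, SE 0.14, adjusted p = 0.0246), yet the call was lost in DESeq2 (adjusted p = 0.101) and without WT replicate 2 or 3 or any ArKI replicate, with adjusted p-values of 0.0703 to 0.0833. *Cx3cr1* did not pass the test in the testis (0.16, adjusted p = 0.709).

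**Figure D5:**
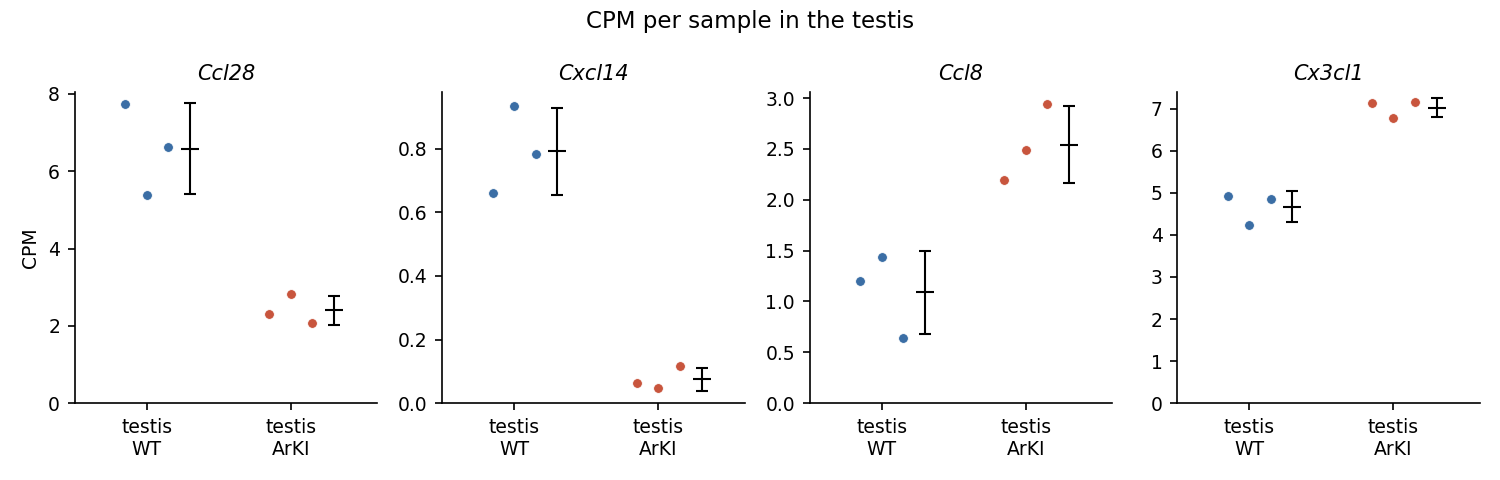
CPM of each testis sample (points) with the mean and SD for the chemokine genes called in the testis, WT beside ArKI. *Ccl28* was at 5.39 to 7.74 CPM in WT and 2.08 to 2.82 CPM in ArKI, and *Cxcl14* at 0.793 ± 0.137 and 0.0751 ± 0.0359 CPM.

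Of the 7 receptors tested in the testis 0 were called by edgeR at an adjusted p below 0.05, and 1 was at an unadjusted p below 0.05. *Cxcr7* was at 5.65 ± 1.11 and 4.15 ± 0.993 CPM (-0.44, adjusted p = 0.292), and its ligand *Cxcl12* at 19.5 ± 5.06 and 20.8 ± 0.711 CPM (0.09, adjusted p = 0.843). The leading gene *Ccl27a* was at 30.6 ± 2.51 and 32.1 ± 4.96 CPM (0.07, adjusted p = 0.830). Receptors of lymphocytes and dendritic cells had at most 6 counts in any epididymal sample but were detected in the testis: *Ccr4* at 3.66 CPM in both genotypes, *Ccr6* at 3.86 CPM in WT, *Ccr7* at 3.69 and 2.68 CPM and *Cxcr5* at 3.12 and 2.92 CPM in WT and ArKI. None of the 4 was called, and *Ccr6* had a log2 fold change of 0.08. *Ccl22*, the ligand of CCR4, was at 6.11 and 6.34 CPM in WT and ArKI testis.

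Few of the marker genes were called in the testis. The 8 macrophage and monocyte genes summed to 90.0 to 92.1 CPM in WT and 98.1 to 104 CPM in ArKI, with *Lyz2* called higher, and the 3 pan-leukocyte genes summed to 6.90 to 10.3 and 9.82 to 11.7 CPM, with none called. The 4 Leydig cell genes summed to 294 to 371 and 427 to 469 CPM, with *Cyp11a1* called higher. *Acta2* of the smooth muscle list, *Col1a1* of the fibroblast list and *Lyve1* of the lymphatic list were called higher too. The sums of the lymphatic list overlapped (34.3 to 37.1 and 30.0 to 37.6 CPM), with *Flt4* and *Prox1* below 0 and short of the test, and the smooth muscle genes had 2 values above and 2 below 0. *Lcn2*, an acute-phase gene listed as a marker of IS principal cells, rose as well (2.58, adjusted p = 2.23e-07), while *Ros1* and *Cst11* of the same list did not pass the test. The part of these changes in the differences of *Ccl8*, *Cx3cl1*, *Ccl28* and *Cxcl14* was not tested.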

How the data were processed

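Total RNA was isolated from whole tissue and made into TruSeq mRNA libraries by the study, which aligned reads to mm10, assigned uniquely mapped reads to RefSeq genes with Subread 1.5.1 and deposited raw read counts per gene. The members and gene lists were chosen with earlier results of these data known, and 1 gene that the rule takes is not reported here. From the deposited counts, genes were filtered with filterByExpr (minimum count 10, minimum total 15), scaled by TMM and tested with robust edgeR 4.0.16 quasi-likelihood fits in R 4.3.3, per tissue and, for segment contrasts and the interaction, over the 20 epididymal samples. P-values were adjusted by Benjamini-Hochberg over all genes tested. Alternatives used DESeq2 1.42.0, limma 3.58.1, other scalings, filters and left-out samples. The fits were tested on simulated data. CPM use TMM-scaled library sizes, set over the 20 epididymal samples and over the 6 testis samples, the floor uses raw totals, and levels per kb use GENCODE M21 exon lengths. Named genes were those called in a genotype or interaction test, the 5 highest per kb in WT, their listed partners, and the 5 largest WT segment differences in each direction. The 95% intervals of ratios of summed counts and the floor of 3 counts cover counting error only. Those of log2 fold changes come from the standard errors of the fits and include the spread between samples. The mutation itself cannot be seen in gene counts. Figures were drawn with matplotlib 3.10.9.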

Additional observations from a re-analysis of the deposited data

Results flagged for a closer look

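In groups of 5 samples, 8 of 46 sets of values of called genes and of those that differed most between segments held a sample far from the other 4, where 1 in 20 of the sets would be 2.3. The sets share libraries and come from genes picked by their results, so an excess over 2.3 was not tested. ArKI caput replicate 2 accounted for 3 of the 8, being highest for *Ccl8* (11.8 CPM), *Ccr1* (2.54 CPM) and *Cxcr4* (3.00 CPM). The others were spread over samples: *Ccr1* was lowest in ArKI IS replicate 4 (0.683 CPM), *Cx3cl1* highest in WT caput replicate 2 (148 CPM), *Cxcl12* lowest in ArKI caput replicate 5 (48.4 CPM), and *Cxcl14* highest in WT IS replicate 2 (24.0 CPM) and lowest in WT caput replicate 4 (19.6 CPM).

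The ArKI effect in the caput exceeded that in the IS by 1.76 for *Cxcl14*, 1.43 for *Ccr1* and 0.51 for *Cxcr7* on the log2 scale, each by a test of the difference itself.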

How the results depend on the processing

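RLE factors and library size alone gave the same called genes as TMM. With at least 10 counts in every sample, which removes low genes, calls at an adjusted p below 0.05 were 3 in the IS (5 as reported), 1 in the caput (1), 2 in the testis (4), 5 and 5 between segments in WT and ArKI (12 and 8) and 2 for the interaction (3), and calls at the study thresholds 0 in the IS and 1 in the testis. With at least 1 count, the caput had 7 calls and 3 at the study thresholds, and the IS and testis 2 and 5 at the study thresholds; without ArKI caput replicate 2 as well, chosen after seeing the data, the caput had 5 and 3. With all 4 epididymal groups in 1 fit the caput had 3 and 3, and the IS 0 at the study thresholds. Leaving out 1 sample gave 5 to 6 calls in the IS, 1 to 4 in the caput, 2 to 4 in the testis, 10 to 12 and 7 to 11 between segments in WT and ArKI and 2 to 4 for the interaction, and at the study thresholds 0 to 1, 1 to 3 and 2 to 3. Of 22 values of single genes, 17 kept direction and side of the threshold under every alternative in which the gene was tested, and 0 reversed. With at least 10 counts in every sample some of these were not tested. They were *Cxcl13* in the IS, *Cxcl14* in the testis and, between WT segments, *Ccl28*, *Cxcr4*, *Ccl9*, *Ccr1* and *Ccl17*.

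Same-numbered samples correlated at -0.176 to 0.196 in their deviations from group means, and in none of the 5 pairs of groups did every pair pass 0.1, so the numbers were not taken to pair samples. The highest median was 0.111, between WT IS and WT caput (-0.00547 for other numbers), where 3 of 5 samples correlated best with their own number. With the replicate block, calls were 7 in the IS (*Ccl28* and *Ccr2* added), 2 in the caput (*Cxcl12* and *Cxcl14*), 4 in the testis, 12 and 9 between segments and 4 for the interaction (*Cxcl12* added). The 31 genes never tested had at most 16 counts in a sample, and 6 of them had 0 throughout.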

Other observations

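Genes downstream of the receptors and genes of the cytokines that induce chemokines were examined as lists. Of 18 receptor signalling genes tested in the IS, *Gnai3*, an inhibitory G protein subunit, rose and 4 fell: *Was*, an actin regulator of leukocytes (log2 fold change -0.86, adjusted p = 6.39e-07), *Prex1*, a Rac activator (-0.66), *Arrb2*, an arrestin (-0.51), and *Adrbk1*, a receptor kinase (-0.37). Of all genes, 15.0% were higher and 14.6% lower there, so the 5 calls are near the share of all genes. In the caput 4 rose, namely *Dock2* (0.92, adjusted p = 0.0052), *Rac2* (0.65), *Was* (0.52) and *Arrb1* (0.29), and *Prex1* fell (-1.14), again 5 of 18 and near the share of all genes (13.7% higher and 14.0% lower). The ArKI effect differed between the segments for 5 of the 18, beside 15.1% of all genes: it was higher in the caput for *Was* (1.38, adjusted p = 2.83e-05), *Dock2* (1.19), *Rac2* (0.88) and *Adrbk1* (0.28), and lower for *Prex1* (-0.49). None of the 3 pan-leukocyte genes passed that test, but all 3 were positive at an unadjusted p below 0.05 in edgeR (median 0.54). *Csf1r*, *Cx3cr1* and *Emr1* of the macrophage and monocyte list and *Itgax* of the dendritic list passed it, higher in the caput like *Was*. No gene of these lists was called lower, and their part was not tested. Of the receptor signalling genes 0 of 17 were called by edgeR in the testis, and 0 had an unadjusted p below 0.05.

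Of the 22 listed genes of inducing cytokines, their receptors and NF-kappa B, 14, 13 and 15 were tested in IS, caput and testis, with 4, 2 and 1 called, beside the shares of all genes above and 1.64% higher and 0.328% lower in the testis. *Il1r1*, the interleukin 1 receptor, rose in all 3 tissues (0.78, 0.57 and 0.54 in IS, caput and testis). *Tnfrsf1b*, a tumor necrosis factor receptor, rose in the IS (0.24) and the caput (1.00, adjusted p = 9.32e-06), while *Ifngr1* and *Il17ra* fell in the IS (-0.27 and -0.26).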
